A study of Mus musculus with 5 samples.

Results

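A set of 40 germline and meiosis genes was examined for 3 chromatin readouts in mouse embryonic stem cells. The set was chosen by gene name, with earlier results of these data known. It held structural and enzymatic components of meiosis, the piRNA pathway and regulators of germ cells. All 40 were found among the 21631 protein-coding genes of chromosomes 1 to 19 and X. Peaks were assigned to a gene when they shared at least 1 bp with the gene or with 2 kb on either side of it. MPI-II embryonic stem cells were kept on a feeder layer in medium with serum, LIF, the MEK inhibitor PD0325901 and a GSK3 inhibitor. They were either wild type or a monoclonal DDX5 knockout, in which 2 guides directed a Cas9 nickase to exon 2 of Ddx5, the gene of a DEAD-box RNA helicase. H2AK119ub was profiled by ChIP-seq in both genotypes and RYBP in wild-type cells alone, with an antibody against its alias DEDAF. With 1 library per group, differences between genotypes have no replicate check, and no p-values are given. The labels give both genotypes the same line and the same range of passages. A peak list holds no expression level, so the loss of DDX5 and the embryonic stem cell identity were not checked here.

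H2AK119ub is histone H2A with ubiquitin attached, a repressive mark written by Polycomb repressive complex 1. RYBP belongs to the variant complexes, which lack the chromobox subunits of the canonical ones. A variant built around PCGF6 carries the DNA-binding proteins MGA with MAX and E2F6 with DP1, and it is known for silencing germ cell and meiotic genes in embryonic stem cells. MGA and MAX bind E-boxes, and E2F6 binds a GC-rich element, and both kinds of site occur in the CpG-rich promoters of many germline genes.

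The wild-type H2AK119ub list held 24235 peaks over 45.9 Mb, the knockout list 20994 peaks over 30.6 Mb and the RYBP list 9564 peaks over 17.2 Mb. Median peak widths were 1360, 1083 and 1634 bp. The covered length of the mark in the knockout was 0.52 to 0.84 times that in the wild type on every chromosome except chromosome 6, where it was 1.36 times. Of the germline genes, Asz1, Stk31 and Stra8 lie on chromosome 6, and Syce2 and Tex15 on chromosome 8, which had the most covered length of any chromosome in every list. Read depth is unknown, so a gene without a peak is one where none was called, and this does not show that the mark or the protein was absent.

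RYBP was the most frequent of the 3 readouts at the germline genes. It had a peak at 31 of 40 genes, 77.5% (95% Wilson interval 62.5% to 87.7%), against 37.6% of all protein-coding genes. H2AK119ub was present at 24 in the wild type, 60.0% (44.6% to 73.7%), against 27.9% of all genes, and at 23 in the knockout, 57.5% (42.2% to 71.5%), against 23.6%. The germline genes had a median length of 38128.5 bp against 17329 bp for all genes, and a longer gene gives a wider window. The intervals treat genes as independent and cover counting error alone. They do not allow for the choice of the genes with earlier results known.

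Counting only peaks that lay over an annotated start of transcription takes gene length out of the comparison. RefSeq promoter entries gave a start for 34 of the 40 genes and for 17274 of all genes. RYBP covered a start in 23 of the 34, 67.6% (50.8% to 80.9%), against 30.0% of all genes. Wild-type H2AK119ub covered 15, 44.1% (28.9% to 60.5%), against 8.23% of all genes, and knockout H2AK119ub covered 9, 26.5% (14.6% to 43.1%), against 6.29%.

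**Figure D1:**
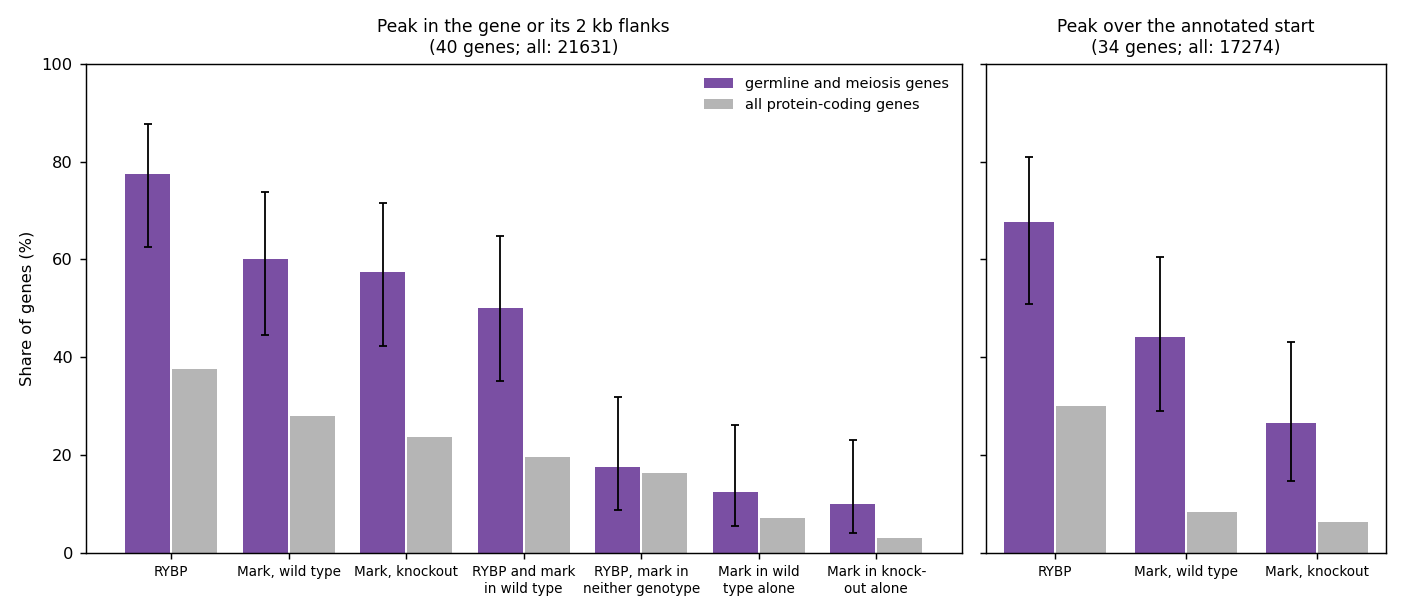
Bars give the percentage of the germline and meiosis genes (purple, with 95% Wilson intervals) and of all protein-coding genes (grey) in each class, with peaks in the gene or its 2 kb flanks on the left and over an annotated start on the right. RYBP is at 77.5% of the germline genes against 37.6% of all genes, while RYBP with the mark in neither genotype is at 17.5% against 16.4%.

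Both H2AK119ub lists marked 19 of the 40 genes, 47.5% against 20.7% of all genes. The mark was called in wild type alone at 5 genes (12.5%, against 7.20% of all genes), namely Mael, Majin, Rad21l, Rec8 and Slc25a31. It was called in knockout alone at 4 genes (10.0%, against 3.00%), namely Dmc1, Msh4, Piwil2 and Sycp1. The remaining 12 genes had the mark in neither genotype. The number marked in wild type alone was 8 with windows at the gene ends, 8 with peaks at least 1 kb wide, and 9 of 34 with windows around the start. Shares over all genes are not given for these other settings. With peaks at least 1 kb wide, 13 genes were marked in both genotypes. Dazl, Msh5, Sycp2 and Zcwpw1 were then marked in wild type alone, Mov10l1 in knockout alone and Brdt in neither. With no flank the mark was in wild type alone at 4 genes and in knockout alone at 4. With equal numbers of the widest peaks from each genotype the order turned, to 4 in wild type alone and 6 in knockout alone, so neither class was shown to be the larger. The knockout list held 19 of the 24 genes with the wild-type mark, 79.2% against 74.1% over all genes, so the share kept was near the background. The wild-type list held 19 of the 23 genes with the knockout mark, 82.6% against 87.3%.

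RYBP coincided with the wild-type mark at 20 of the 40 genes, 50.0% against 19.6% of all genes. Those 20 were 64.5% of the 31 genes with RYBP, against 52.0% of all genes with RYBP, and 83.3% of the 24 with the wild-type mark, against 70.2%. The knockout mark was at 19 of the 31, 61.3% against 46.2%. RYBP was present at all 5 genes marked in wild type alone, against 53.4% of all genes of that class, and at all 4 marked in knockout alone, against 56.5%. The intervals for these shares were 56.6% to 100% and 51.0% to 100%, and the second includes its background. A RYBP peak lay on a wild-type mark in 18 of the 31 genes, 58.1% against 44.1%, and on a knockout mark in 16, 51.6% against 38.6%. Of the 15 genes with RYBP that were marked in both genotypes, 14 had a wild-type peak on RYBP, 93.3% against 89.8%, the exception being Mov10l1. At 7 genes RYBP was present and the mark was called in neither genotype, 17.5% against 16.4%. Read among the genes with RYBP, those 7 of 31 are 22.6%, against 43.5% of all genes with RYBP. With peaks at least 1 kb wide, RYBP without the mark was found at 11 of 31 genes with RYBP, in place of 7. The share over all genes is not given for that setting, so whether the lower share holds there is not known. Tdrd9, Piwil1, Stra8 and Tex101 carried the mark without RYBP, that is 4 of the 9 genes without RYBP, 44.4% against 15.4%. Asz1, Hormad2, Meiob, Piwil4 and Tdrd12 had no peak in any list.

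The proximal promoters below are shown because RYBP peaks lay over them, with up to 3 genes for 3 of the 4 combinations of RYBP and mark, taken in order of RYBP peak width. Promoters of genes with RYBP and the mark in knockout alone are not printed. A combination refers to peaks anywhere in the gene or its 2 kb flanks, and the mark need not lie on the promoter shown. Each runs 5′ to 3′ on the strand of the gene, from 250 bases before to 50 after the start, and comes from RefSeq GRCm38.p6, which shares its coordinates with mm10. Capitals mark the E-box CACGTG and the E2F6-type element GCGGGAA, read on either strand, so that the latter also appears as TTCCCGC. The first set had RYBP and the mark in both genotypes: Smc1b (chr15:85131908-85132207, minus strand), Stag3 (chr5:138280259-138280558, plus strand) and Tdrkh (chr3:94412994-94413293, plus strand). The mark covered the start in both genotypes at Smc1b, in wild type alone at Tdrkh and in neither at Stag3, whose knockout peak ended at a distance of -3204 bp from the start, upstream of it.
Smc1b: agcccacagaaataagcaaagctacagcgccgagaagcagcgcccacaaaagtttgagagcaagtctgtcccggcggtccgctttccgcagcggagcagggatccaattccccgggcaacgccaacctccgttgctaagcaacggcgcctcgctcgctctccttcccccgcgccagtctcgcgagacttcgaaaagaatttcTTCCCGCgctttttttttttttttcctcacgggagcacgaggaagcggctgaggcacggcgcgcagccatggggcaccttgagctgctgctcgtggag
Stag3: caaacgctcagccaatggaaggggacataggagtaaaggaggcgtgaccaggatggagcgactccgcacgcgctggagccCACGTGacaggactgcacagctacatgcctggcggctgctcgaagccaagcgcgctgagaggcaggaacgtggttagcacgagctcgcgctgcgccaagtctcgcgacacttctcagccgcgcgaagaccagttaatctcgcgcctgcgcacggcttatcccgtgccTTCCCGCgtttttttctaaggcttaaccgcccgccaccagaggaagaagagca
Tdrkh: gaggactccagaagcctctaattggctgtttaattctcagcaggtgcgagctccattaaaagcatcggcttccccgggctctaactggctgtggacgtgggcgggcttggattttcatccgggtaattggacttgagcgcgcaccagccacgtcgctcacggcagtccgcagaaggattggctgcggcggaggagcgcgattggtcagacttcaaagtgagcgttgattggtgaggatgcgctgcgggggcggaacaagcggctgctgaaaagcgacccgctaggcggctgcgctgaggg

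The second set had RYBP and the mark in the wild type alone: Rec8 (chr14:55617916-55618215, plus strand), Mael (chr1:166238695-166238994, minus strand) and Slc25a31 (chr3:40708621-40708920, plus strand). The mark covered the start at Mael and Slc25a31 and began 245 bp past it at Rec8.
Rec8: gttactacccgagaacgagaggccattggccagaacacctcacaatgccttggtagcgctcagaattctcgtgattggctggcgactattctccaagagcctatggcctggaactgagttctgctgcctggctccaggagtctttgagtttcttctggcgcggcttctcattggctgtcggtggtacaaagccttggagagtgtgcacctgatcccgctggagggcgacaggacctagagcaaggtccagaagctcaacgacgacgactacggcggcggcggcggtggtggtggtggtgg
Mael: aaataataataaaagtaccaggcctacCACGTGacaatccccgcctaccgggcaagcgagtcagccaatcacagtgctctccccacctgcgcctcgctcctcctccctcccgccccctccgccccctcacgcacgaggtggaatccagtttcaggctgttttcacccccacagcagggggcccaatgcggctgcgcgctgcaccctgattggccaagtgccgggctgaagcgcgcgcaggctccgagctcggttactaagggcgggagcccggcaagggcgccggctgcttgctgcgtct
Slc25a31: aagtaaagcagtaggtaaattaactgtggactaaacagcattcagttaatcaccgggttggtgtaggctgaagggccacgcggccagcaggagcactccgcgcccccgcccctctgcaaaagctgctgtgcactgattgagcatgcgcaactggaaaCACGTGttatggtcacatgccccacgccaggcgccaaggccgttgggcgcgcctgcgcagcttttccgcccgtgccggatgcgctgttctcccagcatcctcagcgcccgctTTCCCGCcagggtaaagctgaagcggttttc

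The third set had RYBP and the mark in neither genotype: Tex14 (chr11:87404815-87405114, plus strand), Sycp3 (chr10:88459337-88459636, plus strand) and Stk31 (chr6:49395289-49395588, plus strand).
Tex14: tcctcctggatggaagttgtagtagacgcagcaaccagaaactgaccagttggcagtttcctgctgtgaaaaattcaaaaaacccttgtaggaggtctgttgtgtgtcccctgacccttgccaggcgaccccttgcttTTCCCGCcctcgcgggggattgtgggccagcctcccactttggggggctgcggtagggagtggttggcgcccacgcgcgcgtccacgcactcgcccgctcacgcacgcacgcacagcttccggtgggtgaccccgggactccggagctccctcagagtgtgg
Sycp3: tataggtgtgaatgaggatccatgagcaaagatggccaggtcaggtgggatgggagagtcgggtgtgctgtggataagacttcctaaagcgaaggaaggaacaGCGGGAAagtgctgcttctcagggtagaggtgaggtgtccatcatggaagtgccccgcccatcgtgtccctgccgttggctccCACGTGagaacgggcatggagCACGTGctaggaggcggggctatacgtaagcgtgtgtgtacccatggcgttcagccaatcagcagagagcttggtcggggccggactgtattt
Stk31: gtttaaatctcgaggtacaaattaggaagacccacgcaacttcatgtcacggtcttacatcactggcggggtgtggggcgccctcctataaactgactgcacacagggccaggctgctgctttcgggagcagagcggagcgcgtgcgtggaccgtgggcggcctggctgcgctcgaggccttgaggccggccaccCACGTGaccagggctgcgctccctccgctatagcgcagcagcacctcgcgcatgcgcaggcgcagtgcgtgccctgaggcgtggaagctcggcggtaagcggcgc

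Stag3 and Slc25a31 held 1 match to each motif, and Sycp3 held 2 E-boxes and 1 E2F6-type element. Smc1b and Tex14 held 1 E2F6-type element each, Mael and Stk31 held 1 E-box each, and Tdrkh and Rec8 held neither. Motif matches thus occurred in promoters of each combination printed. Of the genes with RYBP over the start and the mark in knockout alone, Sycp1 had an E-box and no E2F6-type element, and Dmc1 had neither. In the sequences printed, no E-box overlapped an E2F6-type element.

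Across the 23 germline genes with RYBP over the start, 11 had an E-box in a promoter window, 47.8% against 12.9% of all genes with RYBP over the start. The E2F6-type element was found in 9, 39.1% against 11.0%, and both motifs together in 5, 21.7% against 1.6%. At least 1 of the motifs was present in 15 of the 23, 65.2% against 22.3%. Of the 11 germline genes without RYBP over the start, 2 had an E-box and 0 the E2F6-type element, against 7.37% and 5.18% of all genes without RYBP there. These 11 include Mei1, Msh4 and Rad21l, which had RYBP over an end of the gene model. Their annotated starts, and so the windows searched, lay inside the gene. The motifs, too, were chosen with earlier results of these data known. A gene counted when any of its windows held the motif. The 23 genes had 31 windows, and the 5181 genes they were set against had 6806. Of all 32851 promoter windows of this length in the table, 7.15% held the E-box and 4.6% the E2F6-type element.

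Motifs were present both with and without the mark. Of the 17 germline genes with RYBP over the start and the mark in at least 1 genotype, 8 had an E-box and 5 the E2F6-type element. Of the 6 with RYBP over the start and no mark, 3 had an E-box and 4 the E2F6-type element. Over all genes with RYBP over the start the shares were 12.9% and 11.0%, and these are not split by the mark here. These are the letters alone, and no binding of MGA or E2F6 was measured. The ratio of observed to expected CpG in the promoter window had a median of 0.78 over the 23 genes with RYBP, 0.82 over all genes with RYBP over the start and 0.40 over all genes without it.

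**Figure D2:**
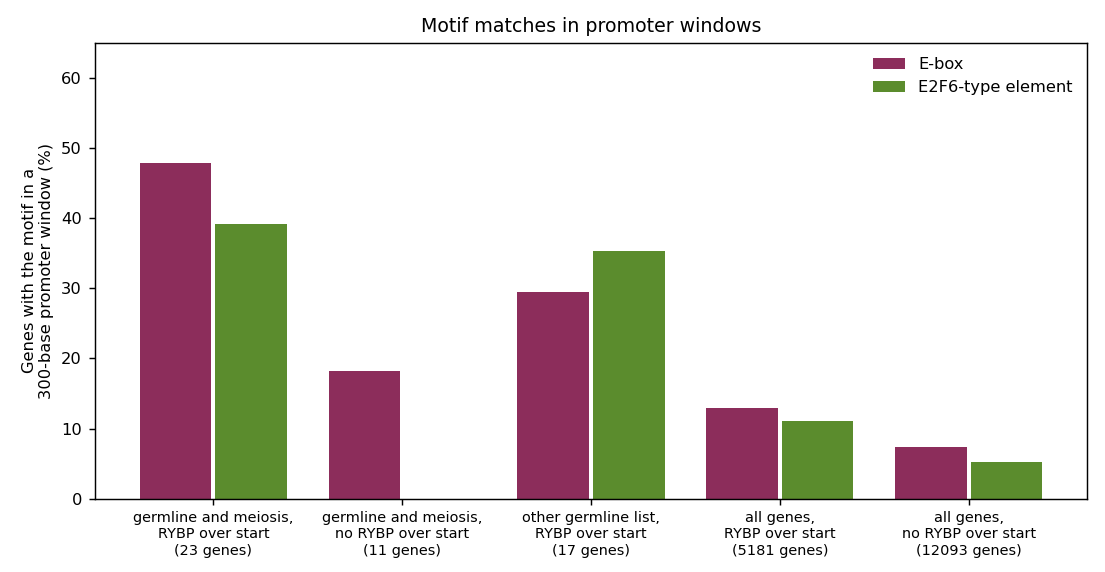
Bars give the percentage of genes with an E-box (purple-red) or an E2F6-type element (green) in a 300-base promoter window, for 5 sets of genes with or without RYBP over the start. The germline genes with RYBP reach 47.8% and 39.1%, and all genes with RYBP 12.9% and 11.0%. The germline genes without RYBP over the start include Mei1, Msh4 and Rad21l, which had RYBP away from the annotated start.

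In most germline genes with RYBP and an annotated start, a RYBP peak covered the start, at a share near that of all genes. In the 26 genes with both a RYBP peak and an annotated start, the distance from the peak centre to the start had a median of 196.5 bp, a lowest value of 14 bp at Syce3 and a highest of 12482 bp at Mei1. It was at most 500 bp in 23 of them, 88.5% against 69.8% of the 6395 genes of the genome with both. The start itself was covered in 23 of the 26, 88.5% (71.0% to 96.0%) against 81.0%. The exceptions were Mei1, Msh4 and Rad21l, in which RYBP covered an end of the RefSeq gene model while the annotated start of the promoter table lay inside the gene. RYBP was over an end of the gene model in 25 of the 31 genes with RYBP, 80.6% (63.7% to 90.8%) against 74.5%. Piwil2, Spo11 and Tdrd6, which have no annotated start, had RYBP inside the gene and over neither end. Further RYBP peaks at Syce3, Tex14 and Zcwpw1 did not cover a start. The 34 RYBP peaks were 876 to 2399 bp wide.

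Of these 34 RYBP peaks, 12 overlapped the mark in both genotypes, 35.3% against 35.9% of all RYBP peaks. A further 8 overlapped it in wild type alone, 23.5% against 10.4%, and 5 in knockout alone, 14.7% against 4.26%. The last 9 overlapped no mark, 26.5% against 49.4%. The peaks overlapping the mark in wild type alone lay at Mael, Msh5, Rad21l, Rec8, Slc25a31, Spo11, Stag3 and Zcwpw1. At Zcwpw1 this was a peak in the flank, 137785208 to 137786944 on chromosome 5, that also overlapped the neighbouring gene Mepce. The RYBP peak over the Zcwpw1 start, 137787184 to 137788929, overlapped the mark in both genotypes. Those overlapping it in knockout alone lay at Dmc1, Mov10l1, Msh4, Piwil2 and Sycp1.

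**Figure D3:**
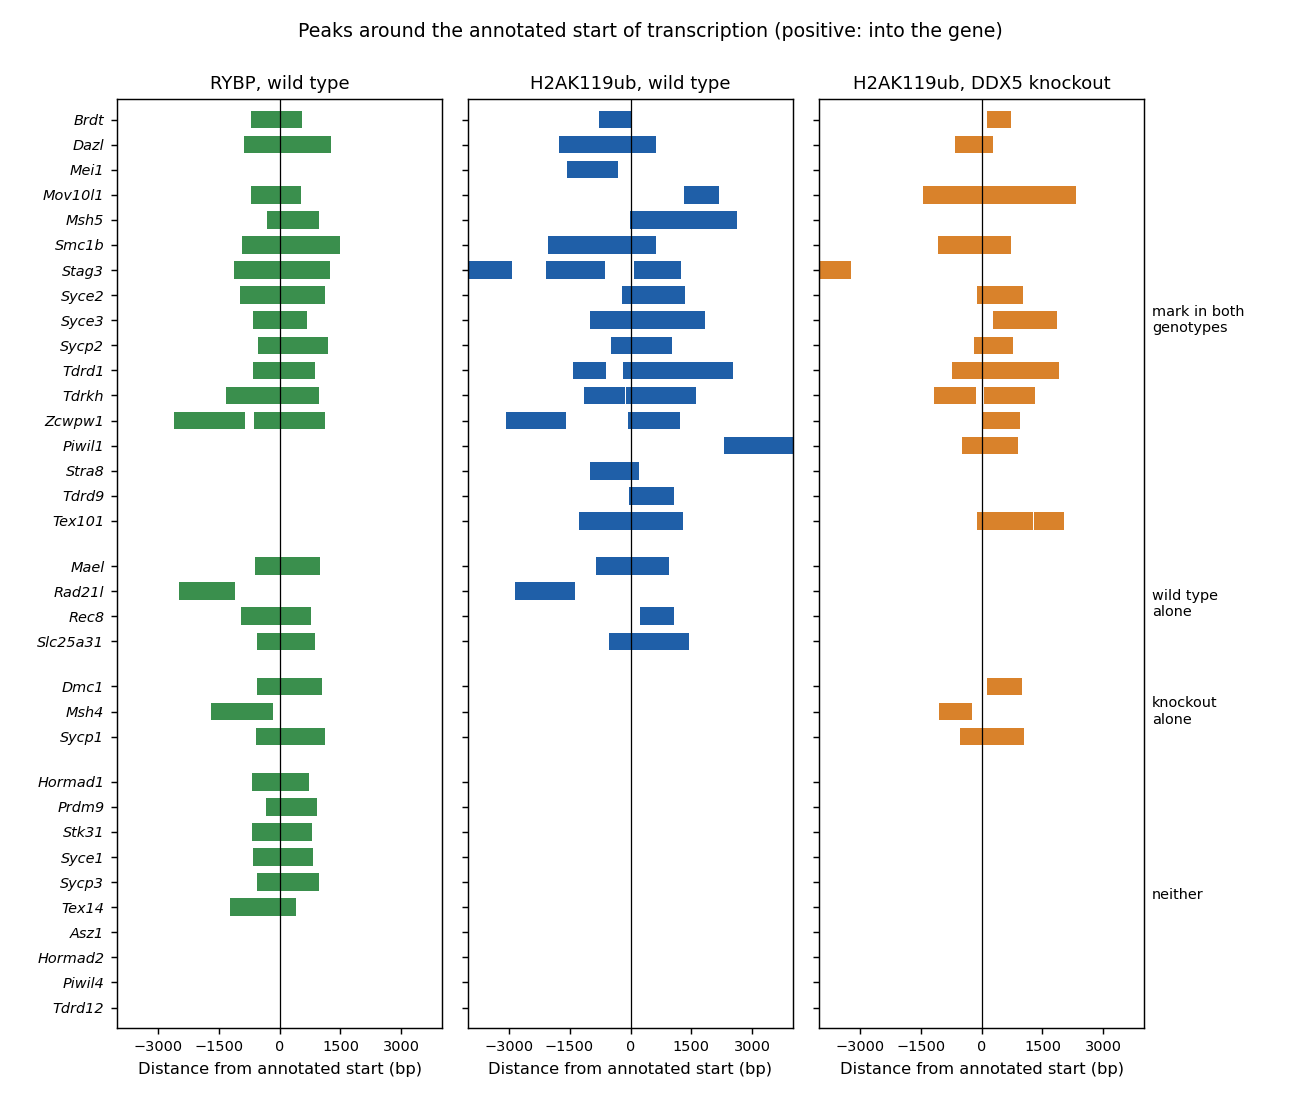
Horizontal bars are peaks of RYBP (green), wild-type H2AK119ub (blue) and knockout H2AK119ub (orange) within 4000 bp of the annotated start in the 34 genes that have one, with positive distances running into the gene and genes grouped by the genotypes that carry the mark. RYBP covers the start in 23 genes, wild-type H2AK119ub in 15 and knockout H2AK119ub in 9.

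The synaptonemal complex is the protein zipper that holds paired chromosomes together in meiosis. All 6 of its genes had RYBP, against 37.6% of all protein-coding genes, with 1341 to 2099 bp peaks over the start. The wild-type mark was at 3 of them, 50.0% against 27.9%, and the knockout mark at 4, 66.7% against 23.6%. Sycp2, for a component of the chromosome axis, had 1495 bp of wild-type and 972 bp of knockout H2AK119ub. Syce2, for a central element protein, had 1540 and 1131 bp. Syce3, for another central element protein, had 5563 and 3822 bp, but part of this lay on peaks that also ran over the neighbouring gene Klhdc7b. The knockout peak at its start side covered 89408413 to 89409973 of chromosome 15 and stopped short of the start that the wild-type peak, 89408431 to 89411258, covered.

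Sycp1, which encodes the transverse filament of that zipper, had no wild-type peak within 81947 bp of the gene. It had a knockout peak of 1585 bp (chromosome 3, 102935046 to 102936630) that lay inside the RYBP peak, 102934974 to 102936685. Sycp3, for the axis protein used as a marker of meiotic chromosomes, had a RYBP peak of 1536 bp (chromosome 10, 88459033 to 88460568). Its nearest wild-type mark was 102444 bp away and its nearest knockout mark 102546 bp away. Syce1 also had RYBP without the mark, with a peak of 1483 bp (chromosome 7, 140787026 to 140788508), and its nearest marks were 69628 and 132861 bp away.

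Meiotic cohesin holds sister chromatids and forms the base of chromosome loops. All 4 of its genes had both RYBP and wild-type H2AK119ub, against 19.6% of all protein-coding genes. The mark was called in the knockout at Smc1b and Stag3, 50.0% against 23.6%. Summed over the 4 genes, the covered length was 10226 bp in wild-type and 2927 bp in knockout cells, a ratio of 0.29 against 0.67 over all genes. This was the lowest ratio of the 5 roles, the others having 0.54, 0.63, 0.77 and 0.87. Over the 4 cohesin genes the genotypes differed by 7299 bp in all. For Stag3 alone the knockout minus wild-type difference was -4152 bp, but -544 bp with windows at the gene ends and -2555 bp with windows around the start. Rec8, for a kleisin subunit of meiotic cohesin, had 832 bp in the wild type (chromosome 14, 55618411 to 55619242) and none in the knockout. That narrow peak is lost from the wild type too when peaks under 1 kb are left out. Rad21l, for the other meiotic kleisin, had 1498 bp (chromosome 2, 151669888 to 151671385) in the wild type alone, over a RYBP peak of 1369 bp.

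Stag3, for the meiosis-specific cohesin partner, had 5262 bp in 4 wild-type peaks and 1110 bp in 1 knockout peak. The first wild-type peak ran from 138273971 to 138274956 and the last from 138280583 to 138281761 on chromosome 5, and all but the last overlapped Gpc2 as well. The knockout peak, 138276196 to 138277305, overlapped a wild-type peak and not the RYBP peak, 138279377 to 138281750. Smc1b kept the mark at its start in both genotypes, with 2634 and 1817 bp, on peaks that also overlapped Ribc2.

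Genes of recombination, pairing and telomere attachment had RYBP at 9 of 11, 81.8% against 37.6% of all protein-coding genes. The wild-type mark was at 5 of them, 45.5% against 27.9%, and the knockout mark at 6, 54.5% against 23.6%, with 4 shared. Mei1, which is needed for meiotic double-strand breaks, had 8611 bp in 6 wild-type peaks and 8525 bp in 5 knockout peaks. The RYBP peak, 82068928 to 82071061 on chromosome 15, lay across 2 wild-type peaks, 82067556 to 82070210 and 82070305 to 82071715, and across 1 knockout peak, 82067689 to 82071818. The other peaks of Mei1 did not overlap between genotypes. Without flanks the order at Mei1 was reversed, with 214 bp more in the knockout. Spo11, for the enzyme that cuts the DNA, had 3972 and 2810 bp, and the wild-type peak under its RYBP peak had no knockout counterpart. Zcwpw1, for a reader of the histone marks that PRDM9 writes, had 2318 and 896 bp. Part of its wild-type length lay on a peak in the flank that also overlapped Mepce.

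Msh5 and Msh4 encode partners that stabilise crossover intermediates. Msh5 had 5247 bp in 4 wild-type peaks, of which the widest, 35043997 to 35046632 on chromosome 17, covered the start and met the RYBP peak. It had 881 bp in the knockout, 35029404 to 35030284, which overlapped none of them, so the mark counts as present in both genotypes without sharing a position. Msh4 had no wild-type peak within 68357 bp and a knockout peak of 806 bp (chromosome 3, 153905138 to 153905943) inside its RYBP peak. Dmc1, for the meiotic strand-exchange recombinase, had no wild-type peak within 43041 bp and a knockout peak of 860 bp (chromosome 15, 79604114 to 79604973) inside its RYBP peak. Both knockout peaks are under 1 kb, and neither gene is marked when such peaks are left out.

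Majin, whose product ties telomeres to the nuclear envelope, had 3163 bp in the wild type, all of it outside the gene model. The peaks lay at 6182645 to 6184039 and 6224318 to 6226085 on chromosome 19, the nearer 88 bp from the gene, and the RYBP peak, 6184056 to 6185156, touched neither. The nearest knockout peak was 2361 bp from Majin, just beyond the flank. With no flank Majin had no mark in either genotype, and with flanks of 5 kb it had the mark in both. With flanks of 5 kb Tdrd9 also counted as having RYBP, since its nearest RYBP peak was 3921 bp away.

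Prdm9, for the methyltransferase that sets recombination hotspots, had a RYBP peak of 1241 bp (chromosome 17, 15563440 to 15564680) and no mark within 131613 bp. Hormad1, for a chromosome axis protein that monitors synapsis, had a RYBP peak of 1412 bp (chromosome 3, 95558997 to 95560408) and no mark within 98222 bp. Its relative Hormad2 had no peak of either kind, the nearest being a wild-type mark 51433 bp away. Meiob, for a single-strand DNA binding partner in recombination, had none either.

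The piRNA pathway silences transposons in germ cells with small RNAs bound by PIWI proteins. Of its 11 genes, 6 had RYBP, 54.5% against 37.6% of all protein-coding genes and 77.5% of the 40. This was the lowest RYBP share of the 5 roles. The mark was at 7 in each genotype, 63.6% against 27.9% for the wild type and 23.6% for the knockout, with 6 shared. Tdrd1, a tudor-domain scaffold, had 6206 bp in 5 wild-type peaks and 4775 bp in 3 knockout peaks. All 3 knockout peaks overlapped wild-type peaks, and the wild-type peak over the start, 56826094 to 56828795 on chromosome 19, met the knockout peak 56825545 to 56828188 under RYBP. Tdrd6, another tudor protein, had 4592 and 4616 bp, and Tdrkh, a partner of PIWI proteins at mitochondria, 2714 and 2280 bp. Mov10l1, for an RNA helicase that starts piRNA processing, had 868 bp in wild-type and 3762 bp in knockout cells. The knockout peak at Mov10l1 covered the start and the RYBP peak and reached over the neighbouring gene Mlc1, while the wild-type peak lay inside the gene.

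The PIWI genes differed among themselves. Piwil1 had the longest wild-type coverage of the 40 genes, 10023 bp in 7 peaks spread from 128738549 to 128756236 on chromosome 5, and 4030 bp in 3 knockout peaks, with no RYBP. Its start was covered in the knockout by a peak from 128735759 to 128737150 and not in the wild type. In windows around the start, Piwil1 therefore had 1392 bp more in the knockout. Piwil2 had no wild-type mark within 18560 bp and a knockout peak of 1013 bp (chromosome 14, 70428369 to 70429381) that overlapped its RYBP peak, 70428421 to 70430018. Piwil4 had no peak of any kind within 8151 bp.

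Mael, for a protein of the nuclear and cytoplasmic piRNA machinery, had 1810 bp in the wild type (chromosome 1, 166237792 to 166239601) across its start and its RYBP peak. The nearest knockout peak was 13707 bp from Mael. Tdrd9, for a helicase of the pathway, had the mark in both genotypes, 3414 and 2379 bp, but no wild-type peak overlapped a knockout peak. Tdrd12 and Asz1 had no peak, the nearest being 16811 bp from Tdrd12 and 17981 bp from Asz1.

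Among the regulators and other germ cell proteins, 6 of 8 genes had RYBP, against 37.6% of all protein-coding genes. The wild-type mark was at 5, 62.5% against 27.9%, and the knockout mark at 4, 50.0% against 23.6%. Dazl, for an RNA-binding protein that licenses germ cell fate, had 2392 bp in wild-type and 928 bp in knockout cells, both over the start and the RYBP peak. Brdt, for a testis bromodomain protein, had 830 and 595 bp, of which the wild-type peak covered the start and the knockout peak began beyond its end, both of them overlapping the RYBP peak. With peaks under 1 kb left out, Dazl was marked in wild type alone and Brdt in neither genotype. Stra8, the retinoic acid target that starts meiosis, had 1198 and 1215 bp without RYBP. Its wild-type peak covered the start, and its knockout peak lay 17108 bp into the gene, on chromosome 6. Tex101, for a sperm surface protein, had 2563 and 2100 bp without RYBP, and its start was covered in both genotypes.

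Slc25a31, for the ADP/ATP carrier of germ cell mitochondria, had 1966 bp in the wild type alone (chromosome 3, 40708336 to 40710301), over the start and the RYBP peak. No knockout peak lay within 175671 bp of it. Tex14, for a protein of the bridges between germ cells, had RYBP peaks of 1616 and 876 bp (chromosome 11, 87403856 to 87405471 and 87442225 to 87443100), the first of which also overlapped Rad51c. The nearest wild-type mark was 20203 bp from Tex14 and the nearest knockout mark 60439 bp. Tex15, needed for transposon silencing and recombination, had a RYBP peak of 2113 bp (chromosome 8, 33516041 to 33518153), and Stk31, for a tudor and kinase domain protein, one of 1486 bp (chromosome 6, 49394929 to 49396414). The nearest marks lay 104549 and 619113 bp from Tex15 and 351344 and 72717 bp from Stk31, the wild-type distance given first.

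**Figure D4:**
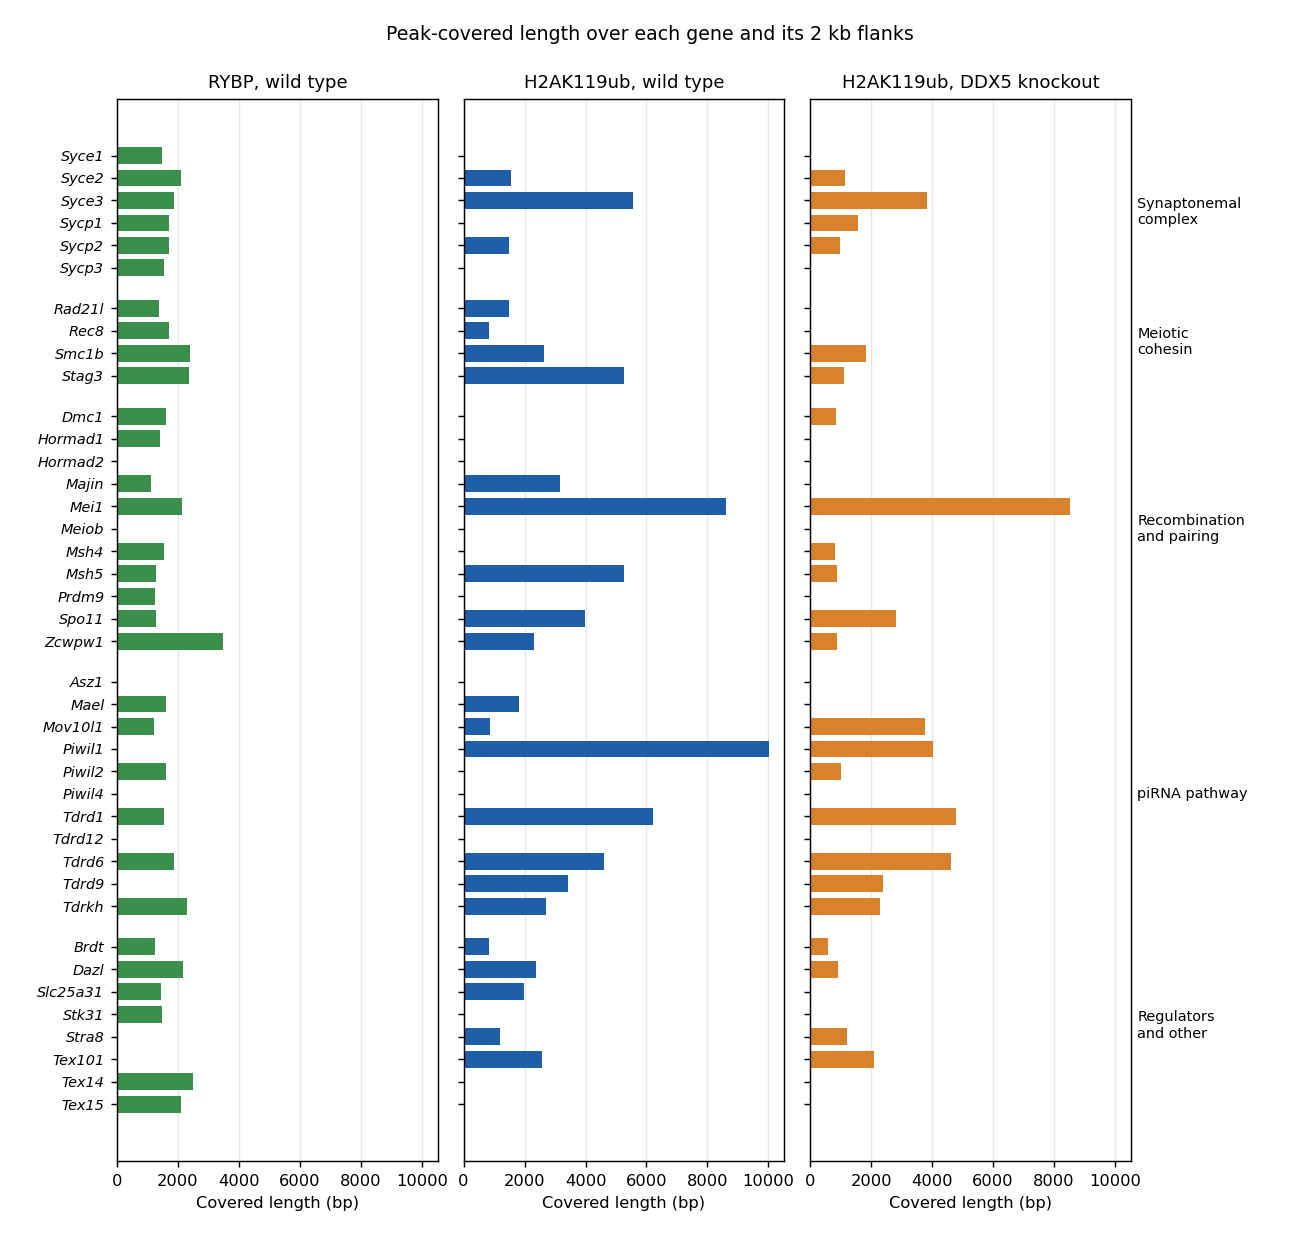
Bars give the length in bp covered by peaks of RYBP, wild-type H2AK119ub and knockout H2AK119ub in each of the 40 genes and its 2 kb flanks, ordered by role, with 1 library behind each panel. RYBP bars, where present, run from 1101 bp at Majin to 3483 bp at Zcwpw1, while the mark runs from none to 10023 bp at Piwil1.

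Over all 40 genes H2AK119ub covered 80711 bp in wild-type and 52908 bp in knockout cells, a ratio of 0.66, against 0.67 over all protein-coding genes. Of the 19 genes marked in both genotypes, 16 had less covered length in the knockout, 84.2% against 78.6% of all genes marked in both. The ratio of knockout to wild type over the 19 had a median of 0.71, against 0.72, and ran from 0.17 at Msh5 to 4.33 at Mov10l1. The exceptions with more in the knockout were Mov10l1, Stra8 (1.01) and Tdrd6 (1.01). The lower coverage in the knockout at germline genes was thus of the size seen over all genes.

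The positions of the mark were shared less completely than the gene counts. At 15 of the 19 genes a wild-type peak overlapped a knockout peak, 78.9% (56.7% to 91.5%) against 91.9% of all genes marked in both. Brdt, Msh5, Stra8 and Tdrd9 were the exceptions. Among the 55 wild-type peaks at germline genes, 14 of the 26 that overlapped RYBP also overlapped a knockout peak, 53.8% against 75.7% of all wild-type peaks with RYBP. Of the 29 without RYBP, 8 did so, 27.6% against 41.5%. Among the 39 knockout peaks, 13 of the 18 with RYBP overlapped a wild-type peak, 72.2% against 87.2%, and 10 of the 21 without RYBP did, 47.6% against 60.5%. Wild-type peaks at germline genes had a median width of 1389 bp and knockout peaks one of 1131 bp. Marked germline genes had a median covered length of 2598.5 bp in the wild type, against 3141 bp over all marked genes. In the knockout it was 1585 against 2407 bp. Whether the shorter coverage bears on the overlap was not tested.

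At the starts themselves the wild-type mark was kept in 6 of 15 genes, with an interval for the share of 19.8% to 64.3%, against 54.7% of all starts covered in the wild type. The 6, 17.6% of the 34 against 4.50% of all starts, were Dazl, Smc1b, Syce2, Sycp2, Tdrd1 and Tex101. The knockout peaks at Dazl and Sycp2 were under 1 kb, at 928 and 972 bp. The start was covered in the wild type alone in 9 genes, 26.5% against 3.73% of all starts. These were Brdt, Mael, Msh5, Slc25a31, Stra8, Syce3, Tdrd9, Tdrkh and Zcwpw1. The start of Tdrkh lay in a gap between knockout peaks, 94412084 to 94413106 and 94413305 to 94414561 on chromosome 3, and that of Zcwpw1 ahead of one, 137787845 to 137788740 on chromosome 5. A knockout peak began 140 bp past the start at Brdt and 290 bp past it at Syce3. At Brdt, Syce3, Tdrkh and Zcwpw1, coverage of a single base thus turned on where a peak edge lay. This does not hold for all 9, since the nearest knockout peak was 13707 bp from Mael and 175671 bp from Slc25a31. At Msh5, Stra8 and Tdrd9 the knockout peaks lay further into the gene, the nearest of them centred 16778 bp from the start. The start was covered in the knockout alone in Mov10l1, Piwil1 and Sycp1, 8.82% against 1.78%. Where RYBP covered the start, wild-type H2AK119ub covered it too in 12 of 23, 52.2% against 17.0%, knockout H2AK119ub in 7, 30.4% against 14.1%, and neither in 9, 39.1% against 79.3%. All these counts use the annotated starts, which lay inside the gene model at Mei1, Msh4 and Rad21l. The end of the gene model under RYBP had the mark in both genotypes at Mei1 and in wild type alone at Rad21l. Neither gene counts as covered here.

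A second list of 30 germline genes, none of them among the 40, was examined in the same way. It was also chosen with earlier results of these data known. RYBP was present at 21, or 70.0%, against 37.6% of all genes. The wild-type mark was at 13 of them, 43.3% against 27.9%, and the knockout mark at 11, 36.7% against 23.6%, with 10 shared, 33.3% against 20.7%. RYBP without the mark was found at 10, 33.3% against 16.4% of all genes. Those 10 were 47.6% of the 21 with RYBP, near the 43.5% over all genes, so the second list did not repeat the lower share of 22.6% at the 40 genes. Among the 10 were Mei4, needed for double-strand breaks (1412 bp of RYBP), Terb1, a telomere attachment protein (2194 bp), and Pld6, a piRNA pathway protein (1651 bp). Marked in wild type alone were Taf7l (693 bp), Tdrd7 (1703 bp) and Tex12, a central element protein (1629 bp), and Nobox, an oocyte transcription factor on chromosome 6, in knockout alone (1025 bp). Ddx4, the helicase that marks germ cells, had 2301 bp in wild-type and 1903 bp in knockout cells. Meioc, for a regulator of meiotic entry, had 2309 and 1353 bp. Of the 17 genes of this second list with RYBP over the start, 5 had the E-box and 6 the E2F6-type element. These shares of 29.4% and 35.3% stand against 12.9% and 11.0% of all genes with RYBP over the start.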

How the data were processed

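Bowtie2 version 2.2.5, MACS version 1.4 and the build mm10 are named in the submitters' processing notes. What each tool did, how peaks were thresholded and whether the inputs served as controls is not given in the sources used here. Each library came as 1 deposited list of peak positions, with no header. The deposited score column is 0 for every peak, so no height or significance per peak was used. The 2 input libraries were not analysed here.

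Starts were converted to positions counted from 1. Genes came from RefSeq GRCm38.p6, and promoter sequences and starts from its promoter table, which matched 34 of the 40 genes. Overlaps, covered lengths and motif matches were computed with Python 3.11.15 and pandas 2.3.3, and Wilson intervals at 95% with SciPy 1.17.1. The overlap step was tested on simulated peaks. There was no test between groups, since each had 1 library. Shares of called genes are set beside the same share over all protein-coding genes.

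The 40 genes, their roles, the motifs and the second list were chosen with earlier results of these data known. Genes named with peak positions were those marked in 1 genotype alone, those with RYBP and no mark, and the 6 with the most wild-type mark. Other positions and examples were chosen after values were seen. The 9 alternatives changed the window, the overlap, the peaks used or the chromosomes.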

Additional observations from a re-analysis of the deposited data

How the results depend on the processing

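Over 9 alternatives, 75 of 81 counts and ratios stayed within 1.5 times the reported value. The counts below are of germline genes only, with no shares over all genes at the same setting. The number of genes marked in wild type alone, 5 as reported, was 8 with windows at the gene ends only, 8 with peaks at least 1 kb wide and 9 with windows around the start. In those start windows, which 34 genes have, 15 genes were marked in the knockout and 11 in both genotypes, in place of 23 and 19. With peaks at least 1 kb wide, RYBP without the mark was found at 11 genes in place of 7. With equal numbers of the widest peaks, 4 genes were marked in wild type alone and 6 in knockout alone, which turns the order of the reported 5 and 4. The ratio of covered length in the knockout to the wild type ran from 0.59 to 0.72 and the number of genes with RYBP from 25 to 32. Of the 15 genes followed singly, the difference of knockout minus wild type changed sign at Mei1 without flanks (214 bp) and at Piwil1 with windows at the gene ends (367 bp) or around the start (1392 bp). The cause was not tested. The class of every gene was the same when peaks within 2 kb were merged and when at least 50% of a peak had to lie in the window. With peaks at least 1 kb wide, 31 of 40 genes kept their class. With windows at the gene ends 36 of 40 did, and with windows around the start 28 of 34. Peaks at least 1 kb wide left 16 genes marked in the knockout and 13 in both genotypes, in place of 23 and 19. No paired analysis was possible because each group had 1 library. Read depth is unknown and sets which narrow peaks were called.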

Other observations

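The genes for 14 subunits of the PCGF6-containing variant of Polycomb complex 1 were examined in the same way. RYBP was present at 9 of them, 64.3%, against 37.6% of all protein-coding genes, and the wild-type mark at 7, 50.0% against 27.9%, and the knockout mark at 5, 35.7% against 23.6%. E2f6, for its DNA-binding repressor, had 2507 bp of RYBP, 3031 bp of wild-type and 2084 bp of knockout H2AK119ub. Mga, for its scaffold, had 1299 bp of the mark in the wild type alone, and Ring1, for a ubiquitin ligase subunit, 752 bp in the wild type alone. Pcgf6, Max and Rnf2 had RYBP and no mark, with 1724, 1197 and 1694 bp of RYBP. L3mbtl2, Cbx3, Hdac1 and Wdr5 had no peak in any list.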
